A study of Mus musculus with 83 samples.

Results

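The clustered protocadherins were taken as every gene of the deposited count table whose mouse symbol begins with Pcdha, Pcdhb or Pcdhg followed by a digit or by a, b or c, leaving out pseudogene symbols, which gave 58 of 48795 genes. The alpha cluster had 14 of them, the beta cluster 22 and the gamma cluster 22, and all lay on the + strand of chromosome 18 within 911.69 kb (GRCm38, 36930184 to 37841873). RNA-seq had been run on 83 pools of 125 neurons each, laser-captured from stained 14 µm sections of frontal cortex of male C57BL/6 mice that were young (2 months) or old (22 months). The pools held pyramidal cells (PYC), picked by Slc17a7, or interneurons picked by Pvalb (PV), Sst (SST) or Vip (VIP). Each type had 12 old pools and 9 young pools, except PV with 8 young pools, and the study asked how these types differ and what age changes in each. No mouse carried a transgene or a treatment per the labels. The labels do not tie a pool to a mouse, so pools of different types may come from the same mice, and the p-values treat as independent what may share an animal. In a bulk pool, fewer cells with a transcript and less of it per cell cannot be told apart.

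Clustered protocadherins are cell-surface adhesion proteins of the cadherin superfamily that bind the same isoform on a facing membrane and give neurons an identity used in self-avoidance, dendrite arborization and synapse formation. In the alpha and gamma clusters each member has its own promoter and a large variable first exon, which carries the extracellular domain and is spliced to exons that all members of the cluster share, whereas beta members are single-exon genes. In single neurons the numbered alpha, the beta and the gamma A and gamma B members are chosen in differing combinations through promoter contacts that depend on CTCF and cohesin, while the C-type members (Pcdhac1, Pcdhac2, Pcdhgc3, Pcdhgc4 and Pcdhgc5) follow cell type and stage more than chance. The numbered alpha proteins reach the surface with partners from the other clusters.

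Reads in the shared last exons were not counted, as far as the values show: of 690 genes with no base free of another gene on their own strand, 622 (90.1%) had no count in any library, and of 435 genes free on their own strand but covered by a gene on the opposite strand, 405 (93.1%) had none. The other 68 and 30 genes of these groups did have counts, with totals up to 12820 and 470853. Among 47310 genes with at least 1 base free on both strands, 15.9% had none. Among 26932 genes with at least 1000 such bases, 3.07% had none. The alpha and gamma values were therefore taken to come from variable first exons. Levels of different genes were compared as CPM (a count scaled to a common library total) per kilobase of exon shared with no other gene on either strand. Pcdhga10 had no such base and no count, so it could not be measured, and Pcdha4 had only 404 such bases and a count in 6 of 83 libraries. Of the numbered alpha members, a median of 14.8% of 50-base words also occur in other genes, against 3.48% in the beta cluster, 0.459% in gamma A and 9.18% in gamma B. None do in the 5 C-type members, so that reads of numbered members are the less certain. The symbol Pcdha11 stood for 2 genes, ENSMUSG00000007440 and ENSMUSG00000102206, which were kept apart.

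The smallest library held 1.46 M counts, the median library 6.99 M and the largest 27.2 M. Mitochondrial genes held 0.215 to 2.51% of the counts of 6 libraries and 8.31 to 17.0% in the remaining 77. Each targeted marker had its highest mean in its own type. Slc17a7 averaged 821.5 CPM in PYC, and 257, 348 and 471 CPM in PV, SST and VIP, so this transcript was also present in the interneuron pools. Pvalb averaged 76.5 CPM in PV and at most 7.59 CPM elsewhere, Sst 812 CPM in SST and at most 57.6 CPM elsewhere, and Vip 686 CPM in VIP and at most 5.45 CPM elsewhere.

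Pcdhac2 and Pcdhgc5 stood above the other members per length. Pcdhac2, a C-type alpha member known for the tiling of serotonergic axons, averaged 21.6 CPM per kb over the 83 libraries, and Pcdhgc5, a C-type gamma member reported to bind GABA-A receptors, averaged 15.1 CPM per kb. The next in order were Pcdhga3 at 6.87, Pcdhga5 at 6.5 and Pcdhgc4 at 5.74 CPM per kb, and these neighbours differ by less than the spread of single libraries. The other C-type members, Pcdhac1 and Pcdhgc3, averaged 3.74 and 3.35 CPM per kb, in the range of the numbered members.

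Among the numbered alpha members, which are the variable choices of that cluster, Pcdha7 (4.12 CPM per kb) and Pcdha9 (3.31 CPM per kb) were highest and Pcdha8 (0.994 CPM per kb) lowest, around a median of 2.41 CPM per kb. In the beta cluster Pcdhb17 (5.48 CPM per kb) and Pcdhb20 (4.88 CPM per kb) were highest and Pcdhb1, with a count in 5 libraries, lowest at 0.0231 CPM per kb, around a median of 2.59 CPM per kb. In gamma A the median of the 11 measurable members was 4.41 CPM per kb, with Pcdhga3 and Pcdhga5 highest and Pcdhga1 lowest at 1.70 CPM per kb. In gamma B it was 3.82 CPM per kb, with Pcdhgb6 at 5.60, Pcdhgb7 at 5.01 and Pcdhgb8, which is annotated as a polymorphic pseudogene, at 0.0146 CPM per kb with a count in 2 libraries. Beta members nearer the 3′ end of their cluster tended to have the higher level per length (Spearman rho 0.644 over 22 genes), whereas the numbered alpha members (0.147 over 12) and the gamma A and B members (-0.205 over 18) showed little such order. These correlations describe genes that were measured in the same libraries.

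**Figure D1:**
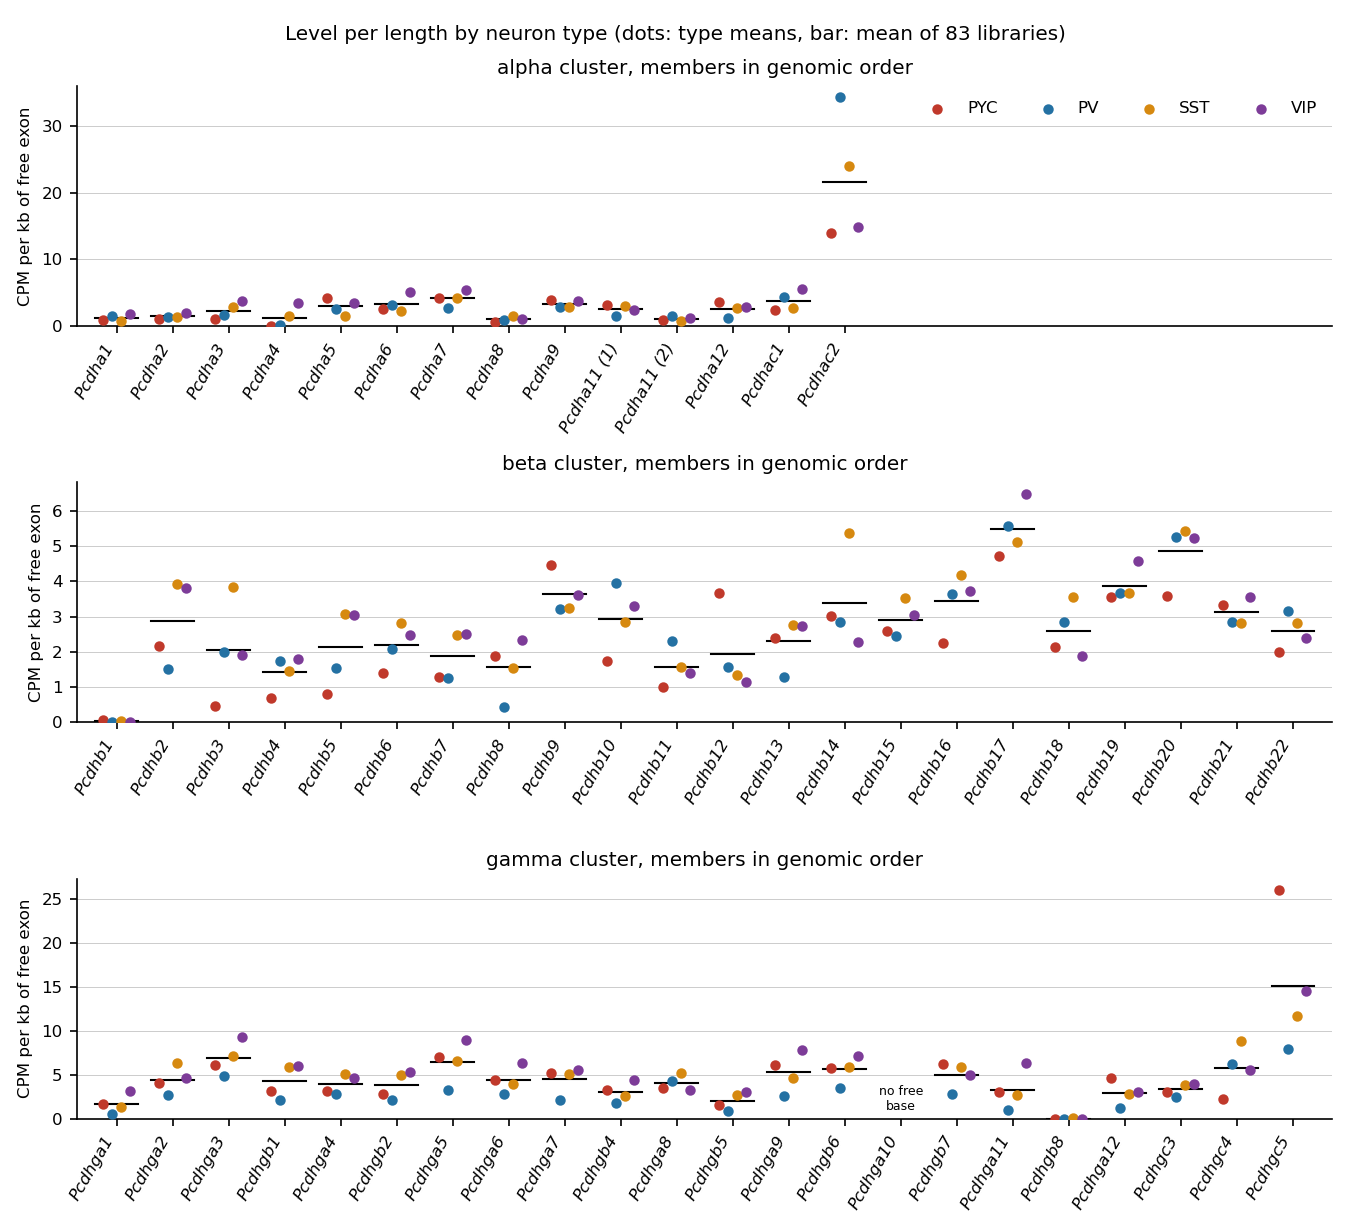
Level per length (CPM per kb of exon shared with no other gene) of each clustered protocadherin, drawn in genomic order on the horizontal axis, with dots for the 4 type means and a bar for the mean of 83 libraries. Pcdhac2 (21.6 CPM per kb) and Pcdhgc5 (15.1 CPM per kb) close their clusters and exceed every other member, and their dots spread by type in opposite orders for PYC and PV.

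Pcdhgc5 was higher in pyramidal cells. Its gene spans 37819513 to 37841873 on chromosome 18, and it was counted in all 83 libraries. Its lowest, median and highest values were 57.9, 121.8 and 187.6 CPM in the 21 PYC libraries, 7.11, 35.4 and 84.5 CPM in 20 PV, 11.5, 52.8 and 121.9 CPM in 21 SST, and 6.74, 56.7 and 157.8 CPM in 21 VIP libraries. The PYC median thus lay above the highest PV value and close to the highest SST value, while the ranges of PYC and each interneuron type overlapped. The mean was 119.9 ± 36 CPM (SD, n = 21) in PYC, 36.7 ± 18.3 in PV (n = 20), 53.7 ± 26.5 in SST (n = 21) and 66.8 ± 37.0 in VIP (n = 21). Against the mean of the other types, PYC was 2.41-fold higher (95% interval 1.90 to 3.07, log2 fold change 1.27 ± 0.18 SE, adjusted p = 5.81e-09, edgeR's quasi-likelihood test with Benjamini-Hochberg adjustment over 15549 genes). The log2 fold change was 1.39 among old libraries alone and 1.13 among young libraries alone. In PV the level was lower by the same test, at a log2 fold change of -0.98 ± 0.21 (adjusted p = 0.000112), just short of the 2-fold asked of a call.

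The summed level of 11 pyramidal markers, all with counts, had its type means in the same order as those of Pcdhgc5. It was 3379 to 6850.2 CPM in PYC, 2388 to 5388 in VIP, 1710 to 3069 in SST and 1113 to 2624 in PV, with means of 4237, 3519, 2247 and 1874 CPM. The part of pyramidal RNA in the Pcdhgc5 values of the interneuron pools was not tested.

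Pcdhac2 was higher in PV cells. Its gene spans 37143503 to 37187657, and it too was counted in all 83 libraries. Its lowest, median and highest values were 42.9, 97.9 and 182.5 CPM in PV, 9.48, 75.4 and 146.2 CPM in SST, 13.2, 45.8 and 95.9 CPM in VIP, and 11.4, 35.6 and 85.3 CPM in PYC. The PV median was above every PYC and VIP value, although the lowest PV libraries lay inside the ranges of all the other types. The mean was 103.9 ± 38.9 CPM (SD, n = 20) in PV, 72.8 ± 28.3 in SST (n = 21), 44.8 ± 24.0 in VIP (n = 21) and 42.0 ± 19.7 in PYC (n = 21). PV was 2.13-fold above the mean of the other types (95% interval 1.67 to 2.70, log2 fold change 1.09 ± 0.18, edgeR's quasi-likelihood test with Benjamini-Hochberg adjustment, adjusted p = 4.19e-07), at 1.01 among old and 1.19 among young libraries. Pcdhac2 was lower in PYC (log2 fold change -0.68 ± 0.19, edgeR adjusted p = 0.00802) and in VIP (-0.66 ± 0.19, edgeR adjusted p = 0.0131), both under 2-fold. The 8 markers shared by GABAergic neurons, all with counts, summed to 2982 to 4240.2 CPM in PV, 1482 to 2850.1 in SST, 1148 to 2829 in VIP and 82.7 to 297 in PYC. Their part in the Pcdhac2 difference was not tested.

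Within a library, the ratio of Pcdhgc5 to Pcdhac2 counts separated PYC from PV. It was above 1 in 21 of 21 PYC libraries, where its log2 ran from 0.33 to 3.09 with a mean of 1.62 ± 0.83 (SD, n = 21), and in 1 of 20 PV libraries, where it ran from -3.04 to 0.25 with a mean of -1.59 ± 0.94 (n = 20). The ranges of these types did not overlap, but both genes had been called in these same libraries. Pcdhgc5 was called higher in PYC and Pcdhac2 higher in PV, so the separation is no independent result. SST (-0.50 ± 1.04, above 0 in 5 of 21) and VIP (0.54 ± 1.29, above 0 in 16 of 21) spread over both. The ratio was not corrected for free exon length, 4606 bases in Pcdhgc5 and 3028 in Pcdhac2. A log2 of 0 is therefore not an equal level per length. Per kb, VIP averaged 14.5 CPM for Pcdhgc5 and 14.8 CPM for Pcdhac2. The ratio's mean log2 in old and young libraries was 1.69 and 1.52 in PYC, -1.58 and -1.61 in PV, -0.69 and -0.26 in SST, and 0.76 and 0.24 in VIP.

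**Figure D2:**
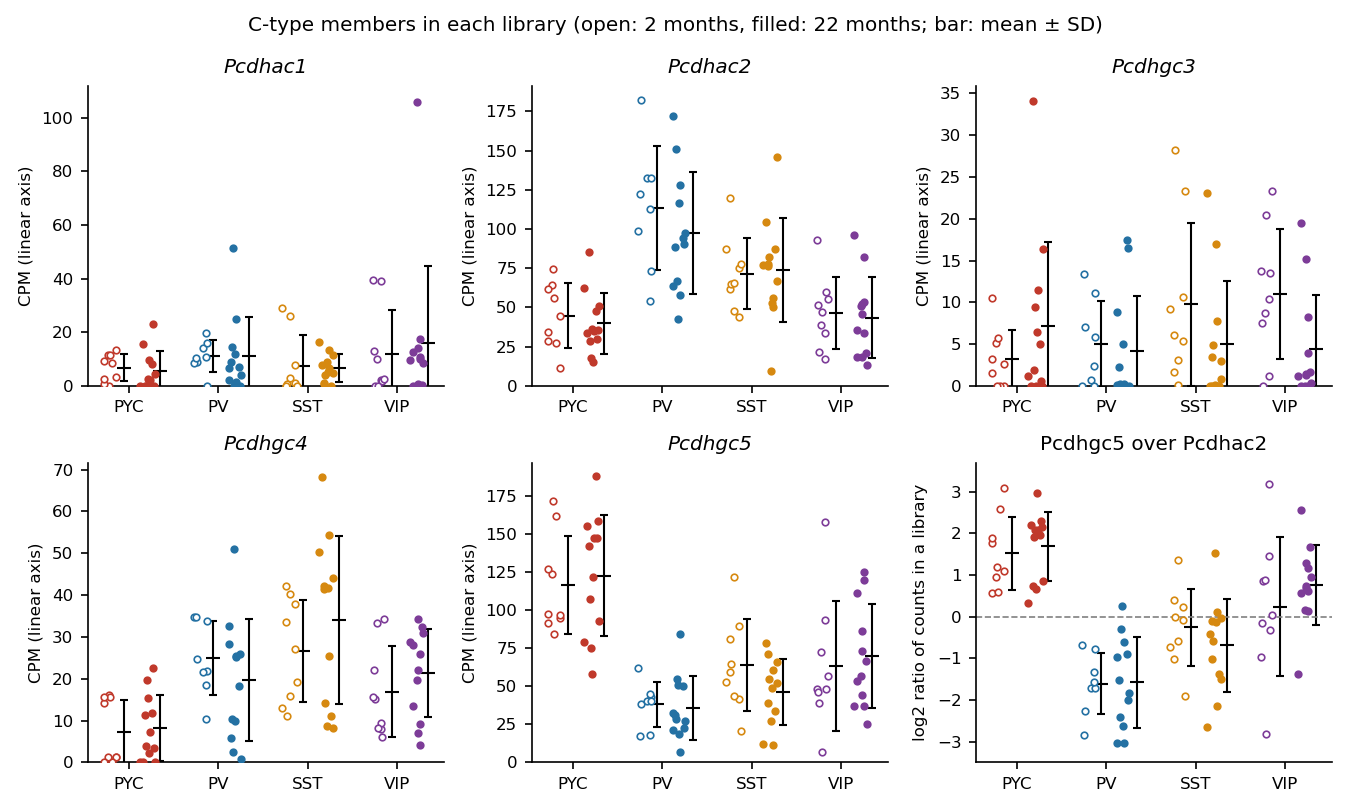
CPM of the 5 C-type members in each library, and the log2 ratio of Pcdhgc5 to Pcdhac2 counts, by neuron type on the horizontal axis (open points, 2 months; filled, 22 months; black, mean ± SD over the libraries of that type and age). PYC libraries lie at 0.33 or more in the ratio and PV libraries at 0.25 or less.

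Pcdhgc4, the gamma member known to be needed for the survival of cortical interneurons, was lower in pyramidal cells. Its gene spans 37815079 to 37841873. Its lowest, median and highest values were 0, 3.80 and 22.5 CPM in PYC, 0.750, 23.3 and 51.1 CPM in PV, 8.24, 33.5 and 68.2 CPM in SST, and 4.14, 19.7 and 34.3 CPM in VIP. It had no count in 4 of 21 PYC libraries and a count in every interneuron library, and the ranges overlapped. Means were 7.75 ± 7.64 CPM in PYC (SD, n = 21), 21.8 ± 12.7 in PV (n = 20), 30.9 ± 17.2 in SST (n = 21) and 19.4 ± 10.6 in VIP (n = 21). The fold in PYC was 0.338 (95% interval 0.189 to 0.605, log2 fold change -1.57 ± 0.43, edgeR's quasi-likelihood test with Benjamini-Hochberg adjustment, adjusted p = 0.00569). Old and young libraries gave -1.54 and -1.61, and neither age alone passed (edgeR adjusted p = 0.0878 and 0.216). In SST Pcdhgc4 stood at 0.97 ± 0.37 on the log2 scale, which missed the threshold by edgeR (adjusted p = 0.125) and was called by limma-voom (1.51, adjusted p = 0.000497).

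Pcdhac1 and Pcdhgc3, the latter known to inhibit Wnt signalling through Axin1, passed the test in no type. Pcdhac1 averaged 6.02, 11.1, 7.03 and 14.2 CPM in PYC, PV, SST and VIP, with a count in 67 of 83 libraries and 1 VIP library at 105.9 CPM. Pcdhgc3 averaged 5.50, 4.55, 7.03 and 7.23 CPM, with a count in 63 of 83. Their standard errors of 0.62 to 0.76 on the log2 scale leave room for differences as large as those of the C-type members that passed.

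Over all members, a call between types asked for an adjusted p under 0.05 and at least a 2-fold difference, and 52 of 58 members had enough counts to be tested. The 4 contrasts share libraries, since each type enters the mean that the others are set against. In PYC 1 member was higher (Pcdhgc5; 2.93% of all genes tested were called higher) and 2 lower (Pcdhgc4 and Pcdhb3; 3.08% of all genes), with 6.01% of genes called in either direction. In PV 1 was higher (Pcdhac2; 3.38% of all genes) and 1 lower (Pcdhga9; 5.23% of all genes), with 8.61% in either direction. None was called in SST, where 2.18% of all genes were called higher and 0.605% lower (2.78% together), or in VIP, where 2.99% were called higher and 1.04% lower (4.03% together). By edgeR's quasi-likelihood test 3 members in SST and 3 in VIP had an unadjusted p under 0.05 (13.5% and 18.9% of all genes), and limma-voom called 2 and 1 members there (4.57% and 5.54% of all genes). The share of members called was near that of all genes in PYC and below it in PV, SST and VIP, and 3 of the 5 calls fell on C-type members.

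Pcdhb3, a beta member with a gene of 3787 bases from 37300799 to 37304585, was lower in PYC. Its lowest, median and highest values were 0, 0 and 10.5 CPM in PYC, 0, 2.93 and 29.5 CPM in PV, 0, 10.3 and 47.0 CPM in SST, and 0, 1.20 and 32.4 CPM in VIP. It had a count in 8 of 21 PYC libraries, 17 of 20 PV, 17 of 21 SST and 14 of 21 VIP libraries, and all ranges overlapped at 0. Its fold in PYC was 0.164 with a wide 95% interval of 0.0505 to 0.534 (log2 fold change -2.61 ± 0.87, edgeR's quasi-likelihood test with Benjamini-Hochberg adjustment, adjusted p = 0.0316). Without young PYC replicate 7, the only young PYC library with a count of Pcdhb3, the log2 fold change was -4.99. The call ended without the 6 libraries of low mitochondrial share (Pcdhb3 -2.49, edgeR adjusted p = 0.0553), in old or young libraries alone, and without any 1 of 5 young PYC libraries (adjusted p up to 0.0510).

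Pcdhga9, a gamma A member whose gene spans 37736936 to 37841870, was lower in PV. Its lowest, median and highest values were 0, 4.06 and 40.0 CPM in PV, 0.468, 22.8 and 44.4 CPM in PYC, 0.258, 11.6 and 47.0 CPM in SST, and 0, 28.2 and 57.0 CPM in VIP. Most PV libraries were low, yet the ranges overlapped almost fully. The fold was 0.379 (95% interval 0.195 to 0.735, log2 fold change -1.40 ± 0.49, edgeR's quasi-likelihood test with Benjamini-Hochberg adjustment, adjusted p = 0.0341). Without any 1 of 5 young PV libraries Pcdhga9 no longer passed (adjusted p up to 0.0619), nor did it in old (-0.93) or young (-1.85) libraries alone.

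**Figure D3:**
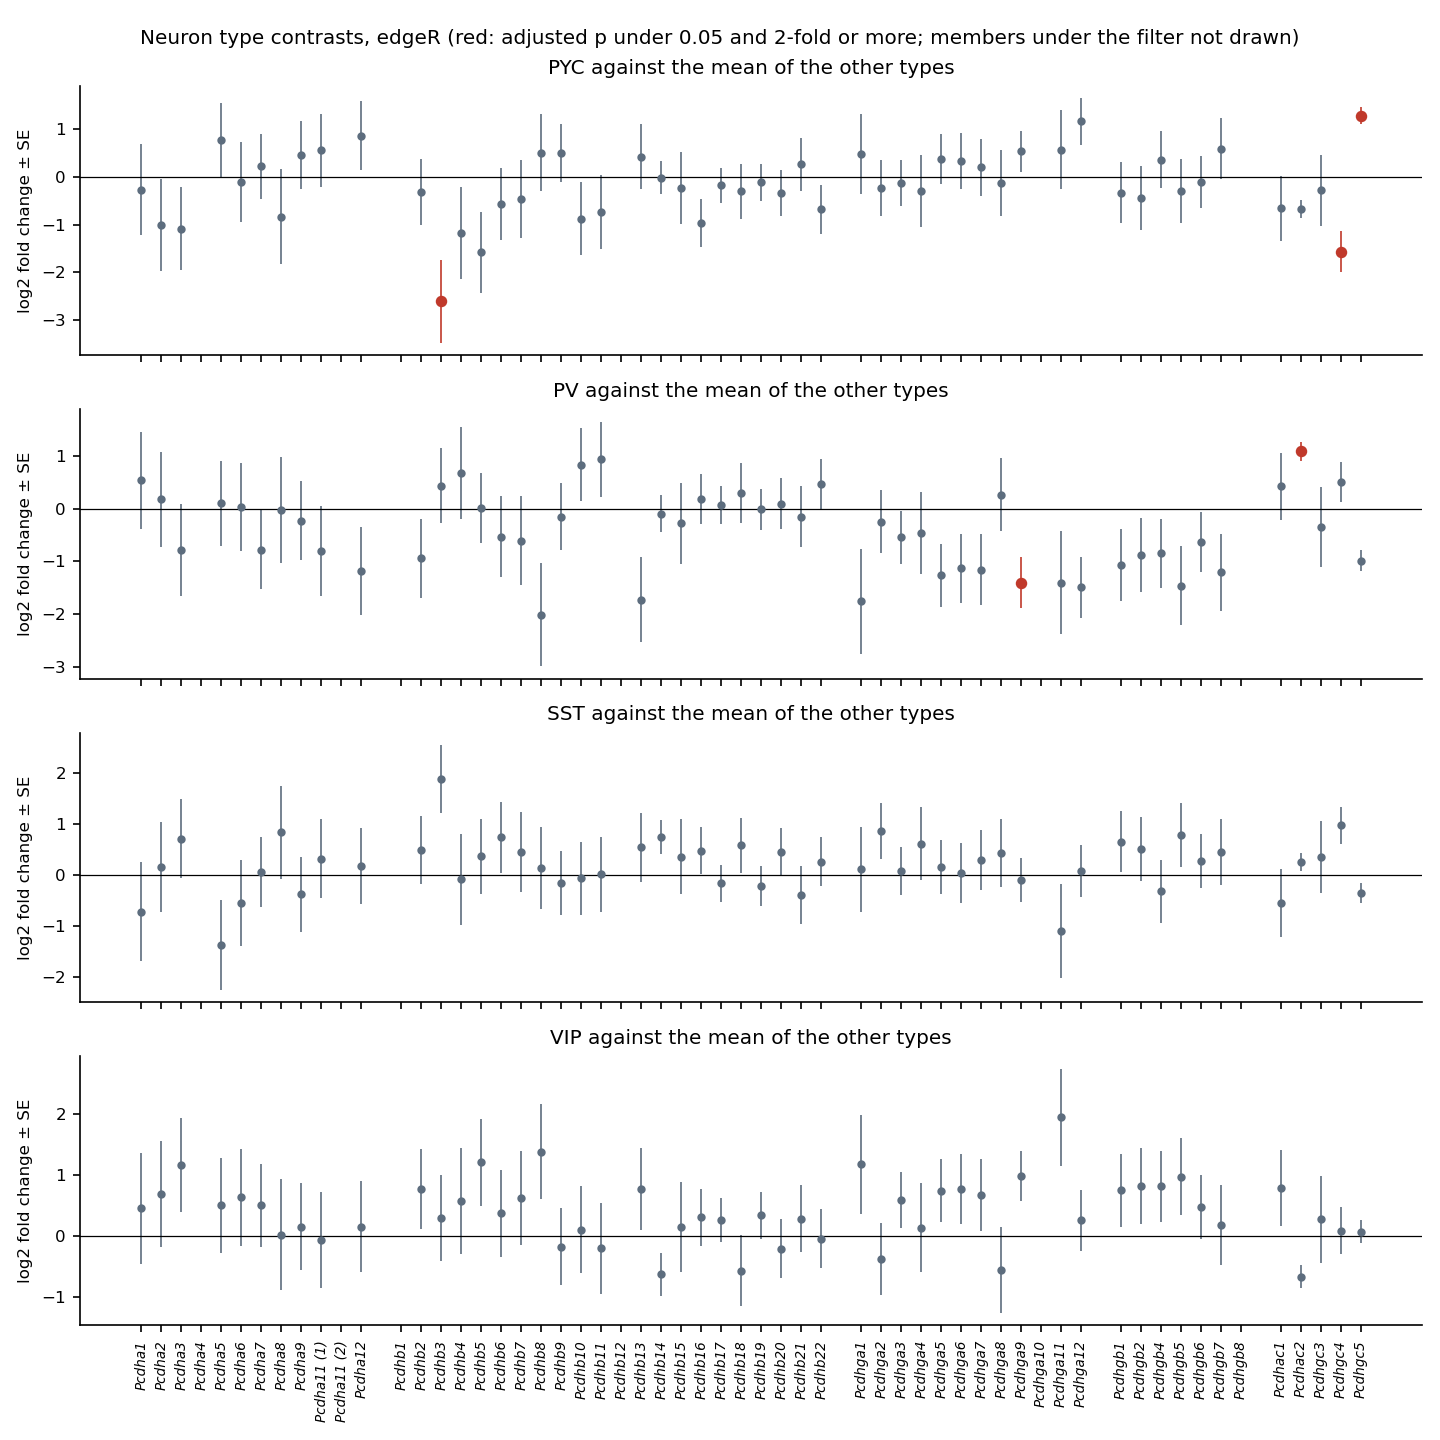
Log2 fold change ± SE of each tested member (vertical axis) in each neuron type relative to the average of the others, with members grouped by family along the horizontal axis and called members in red. The gamma A and gamma B points of the PV panel lie mostly below 0, with only Pcdhga9 called, and Pcdhgc5 and Pcdhac2, among the C-type points at the right, carry the smallest errors.

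Sums over the members of a family were also set side by side, with no filter on low counts and no test. Summed gamma A counts averaged 70.5 ± 29.0 CPM in PV (SD, n = 20) against 131 ± 45.7 in PYC, 129 ± 48.1 in SST and 161 ± 59.3 in VIP (n = 21 each). Summed gamma B averaged 35.8 ± 18.8 CPM in PV against 61.1 ± 34.9 in PYC, 76.9 ± 33.4 in SST and 87.7 ± 32.3 in VIP. Both gamma families thus had their lowest mean in PV and their highest in VIP, with overlapping libraries. The summed level of 11 astrocyte markers, all with counts, also had its extremes in these types: 1063 to 2652 CPM in PV, 1521 to 2967 in SST, 1442 to 3548 in PYC and 1363 to 3524 in VIP, with its lowest mean in PV (1865 CPM) and its highest in VIP (2619 CPM). Markers of oligodendrocytes, their precursors, microglia and vessels also had their lowest mean in PV (567, 72.2, 55.9 and 85.0 CPM), and their part in the gamma values was not tested. Beta sums averaged 208 ± 70.8 CPM in PYC, 243 ± 83 in PV, 298 ± 99.1 in SST and 268 ± 81.2 in VIP, and numbered alpha sums 57.7 ± 27.3, 46.1 ± 32.1, 53.9 ± 33.7 and 73.8 ± 33.5 CPM. The C-type sum varied least, at 181 ± 47.7, 178 ± 48.2, 172 ± 46.3 and 152 ± 50.8 CPM in PYC, PV, SST and VIP, with Pcdhgc5 the larger part in PYC and Pcdhac2 in PV. C-type members held 28.9, 31.8, 23.9 and 20.9% of all counts of the clusters in these types.

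Among tested members the log2 fold change in PV was negative for 10 of 11 gamma A genes (median -1.16) and 6 of 6 gamma B genes (median -0.97), where the median of all 15549 genes was -0.05. In VIP it was positive for 9 of 11 gamma A (median 0.67) and 6 of 6 gamma B genes (median 0.78), beside a median of 0.06 over all genes. Among gamma genes picked out after their values were seen, Pcdhga12 stood at -1.49 ± 0.58 in PV (edgeR adjusted p = 0.0684) and 1.15 ± 0.49 in PYC (0.124), and Pcdhga11 at 1.95 ± 0.80 in VIP (edgeR adjusted p = 0.125), none of which passed by edgeR. Pcdhga12 was called in PV by DESeq2 (-1.49, adjusted p = 0.00711) and limma-voom (-2.59, adjusted p = 0.000463) and in PYC by limma-voom (1.67, adjusted p = 0.00264). Without young SST replicate 8, Pcdhga11 was called by edgeR in VIP (2.76) and in SST (-3.52). In PYC 16 of 20 beta genes were negative (median -0.33, against 0.01 over all genes). Medians of the numbered alpha members were 0.05, -0.12, 0.11 and 0.48 in PYC, PV, SST and VIP.

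**Figure D4:**
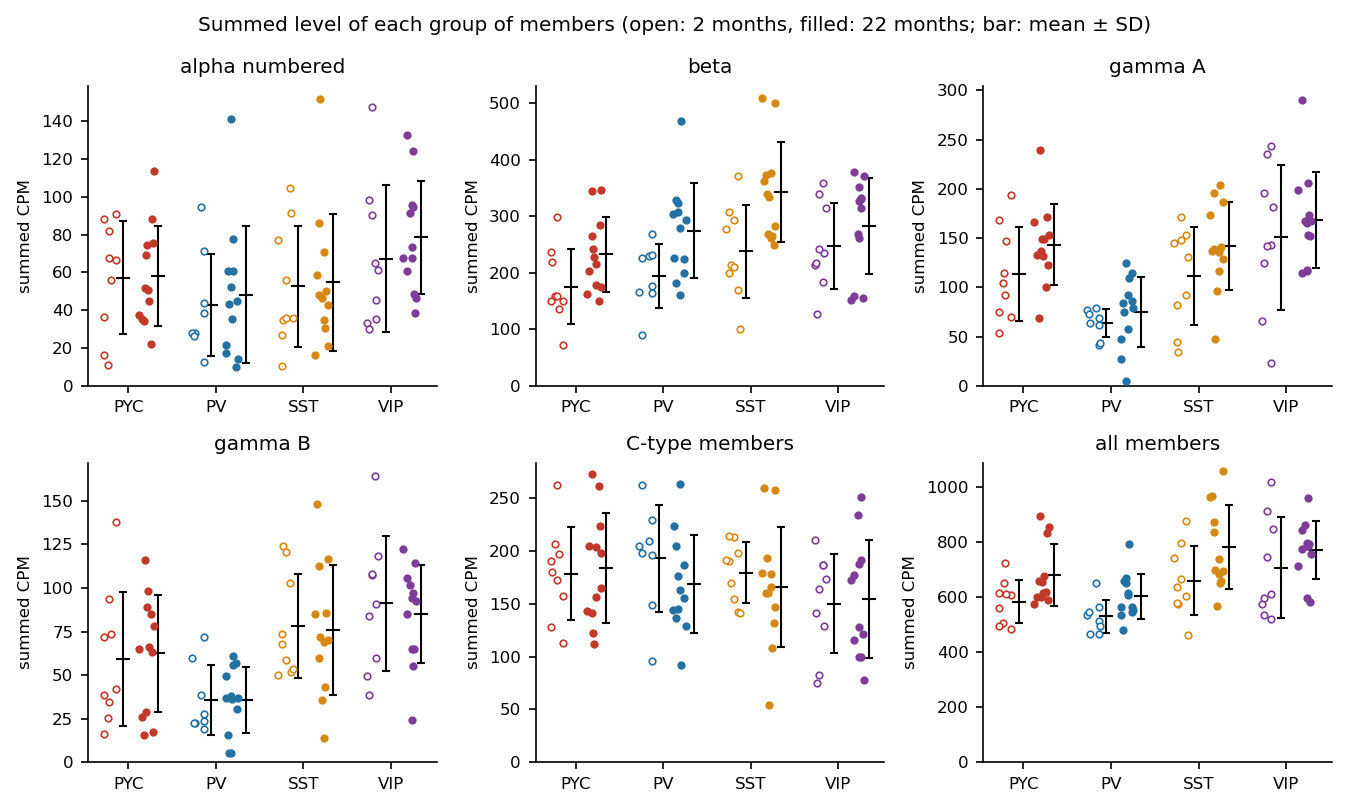
Summed CPM of each family of members in each library by neuron type (open points, 2 months; filled, 22 months; black, mean ± SD over the libraries of that type and age; linear axes). The gamma A and gamma B panels are lowest for PV (means over both ages 70.5 and 35.8 CPM). The C-type means over both ages range only from 152 to 181 CPM.

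Individual numbered members came and went between pools. A library had a count for a median of 42 of 58 members (28 to 52), and for 38 (25 to 52) when each library was thinned to 1.46 M counts. The median member had a count in 51 of 83 libraries among numbered alpha, 61.5 among beta, 70 among gamma A and 68 among gamma B genes. Of the C-type members, Pcdhac2 and Pcdhgc5 had one in all 83, Pcdhgc4 in 79, Pcdhac1 in 67 and Pcdhgc3 in 63. In the median library the top member held 42.2% of all numbered alpha counts, 19.6% of beta, 30.3% of gamma A and 44.6% of gamma B counts. Pcdhb17 averaged 22.0, 25.9, 23.9 and 30.2 CPM in PYC, PV, SST and VIP and had a count in 80 of 83 libraries. Pcdhga5 was much more uneven, averaging 17.9, 8.42, 16.8 and 22.7 CPM with 1 PYC library at 127.6 CPM. In the fit of all 83 libraries, the tagwise variation between libraries of a group, set against the trend at the same abundance, had a median ratio of 1.02 over tested members and 0.975 over all genes. It was highest for Pcdhb4 (1.16), Pcdha5 (1.11), Pcdhga5 (1.10), Pcdhb15 (1.09) and Pcdhb19 (1.09), and below 1 in all 5 C-type members (median 0.893). With each type fitted alone, Pcdhac1 reached 1.01 in PYC and 1.08 in VIP, and Pcdhgc3 1.03 in PV.

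No member was called between old and young mice in any type. In PYC, PV, SST and VIP, 44, 46, 48 and 48 members were tested, and the share of all genes called at an adjusted p under 0.05 by edgeR's quasi-likelihood test was 0.00% in each (0 of 12508, 12564, 12805 and 12337). DESeq2 and limma-voom also called 0 members within any type (DESeq2 called 0.0159% of all genes in PV and 0.00781% in SST). Limma-voom called 0.0160% of all genes in PYC, 0.0159% in PV and 0.00781% in SST. At an unadjusted p under 0.05 by edgeR's test there were 1, 1, 1 and 3 members and 364, 291, 368 and 368 genes overall (2.91, 2.32, 2.87 and 2.98% of all genes). Averaged over the 4 types no member was called (0.0129% of 15549 genes were), and no member's age difference was called as differing between types (0.0322% of genes were). At an unadjusted p under 0.05 by edgeR there were 4 members in the average (5.90% of all genes) and 0 in the test of a difference between types (5.11% of all genes). DESeq2 called 1 of 52 members in the average over types (Pcdhga2; 0.765% of all genes) and limma-voom called none.

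For the C-type members those bounds were narrow only where counts were high. Pcdhgc5 had 57.9, 131.8 and 187.6 CPM as lowest, median and highest in old PYC and 84.0, 97.1 and 171.5 CPM in young PYC. The young range lay within the old range. Its old-to-young fold was 1.06 (95% interval 0.787 to 1.43) in PYC, 0.905 (0.524 to 1.56) in PV, 0.731 (0.458 to 1.17) in SST, 1.09 (0.648 to 1.85) in VIP and 0.930 (0.744 to 1.16) over the types. Pcdhac2 gave 0.882 (0.538 to 1.44), 0.847 (0.606 to 1.18), 1.02 (0.685 to 1.53) and 0.977 (0.544 to 1.75) in the same order, and 0.923 (0.743 to 1.15) over the types. For Pcdhgc4 the interval in PYC, 0.242 to 5.29 around 1.13, bounds little.

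Pcdhga2, a gamma A member, had the smallest age p in PYC without passing the adjustment. Its lowest, median and highest values in PYC were 3.08, 13.4 and 37.2 CPM in old and 0, 3.69 and 7.04 CPM in young libraries. The old values reached above all young ones, while the ranges overlapped at the low end. The log2 fold change was 2.39 ± 0.93 (unadjusted p = 0.0136, edgeR adjusted p = 1.0). In VIP the values were 0, 5.38 and 72.7 CPM in old and 0, 0.642 and 15.5 CPM in young libraries (2.85 ± 1.27, unadjusted p = 0.0302 by edgeR). In PV the old mean (6.44 CPM) was below the young mean (7.67 CPM). Over the types Pcdhga2 gave 1.63 ± 0.53 (edgeR adjusted p = 0.363), and of the tools run only DESeq2 called it (1.65, adjusted p = 0.0311).

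Pcdhb20, a beta member, had unadjusted p under 0.05 in PV and VIP. In PV its lowest, median and highest values were 5.71, 27.9 and 44.3 CPM in old and 0, 4.25 and 24.1 CPM in young libraries, with overlap (log2 fold change 1.5 ± 0.73, unadjusted p = 0.0462 by edgeR, adjusted p = 1.0). In VIP they were 1.49, 19.9 and 80.9 CPM in old and 0, 2.72 and 19.96 CPM in young libraries (2.09 ± 0.93, unadjusted p = 0.0289 by edgeR). In SST the order of the means was the other way, 14.1 CPM in old and 26.3 CPM in young, and Pcdhb20 had the smallest interaction p of the members (0.0706 unadjusted, edgeR adjusted p = 1.0), followed by Pcdhga2 (0.139), Pcdhga11 (0.265), Pcdhga6 (0.285) and Pcdha1 (0.308).

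Pcdhb14 in SST was at 15.2, 46.6 and 186.9 CPM in old and 3.62, 30.1 and 62.1 CPM in young libraries (log2 fold change 1.09 ± 0.42, unadjusted p = 0.0117, edgeR adjusted p = 1.0). Pcdhga1 in VIP was the only such member lower in mean in old pools, at 0, 0.603 and 11.4 CPM against 0, 2.99 and 58.8 CPM (-2.62 ± 1.30, unadjusted p = 0.0495 by edgeR). The groups overlapped for both genes.

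Beta, gamma A and numbered alpha sums had the higher mean in old pools of every type, without a test. Gamma A averaged 144 CPM in old against 113 in young PYC and 75.1 against 63.5 in PV. It averaged 142 against 111 in SST and 168 against 151 in VIP. Numbered alpha averaged 58.1 against 57.1, 48.3 against 42.8, 54.8 against 52.7 and 78.6 against 67.4 CPM in the same order. Gamma B means were higher in old pools only in PYC, and C-type means only in PYC and VIP. The lowest, median and highest beta sums were 149, 222 and 346 CPM in old against 71.8, 158 and 298 CPM in young PYC. In PV they were 161, 286 and 469 against 89.7, 201 and 269 CPM. In SST they were 250.1, 337 and 509 against 100.8, 214 and 372 CPM, and in VIP 152, 321 and 378 against 127, 235 and 359 CPM. Old and young ranges of the beta sums overlapped in all 4 types. Without the libraries of low mitochondrial share, the VIP means of the beta sums were 281 and 270.1 CPM. Averaged over the types, 17 of 20 tested beta members had a positive log2 fold change (median 0.41), while 8058 of 15549 genes did. The smallest p values among them were those of Pcdhb16 (1.27 ± 0.42, edgeR adjusted p = 0.379) and Pcdhb3 (1.97 ± 0.68, edgeR adjusted p = 0.412), and neither passed. Pcdhb16 averaged 17.3 and 4.46 CPM in old and young PYC, 24.9 and 10.3 in PV, 27.7 and 14.2 in SST, and 24.1 and 13.4 CPM in VIP.

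**Figure D5:**
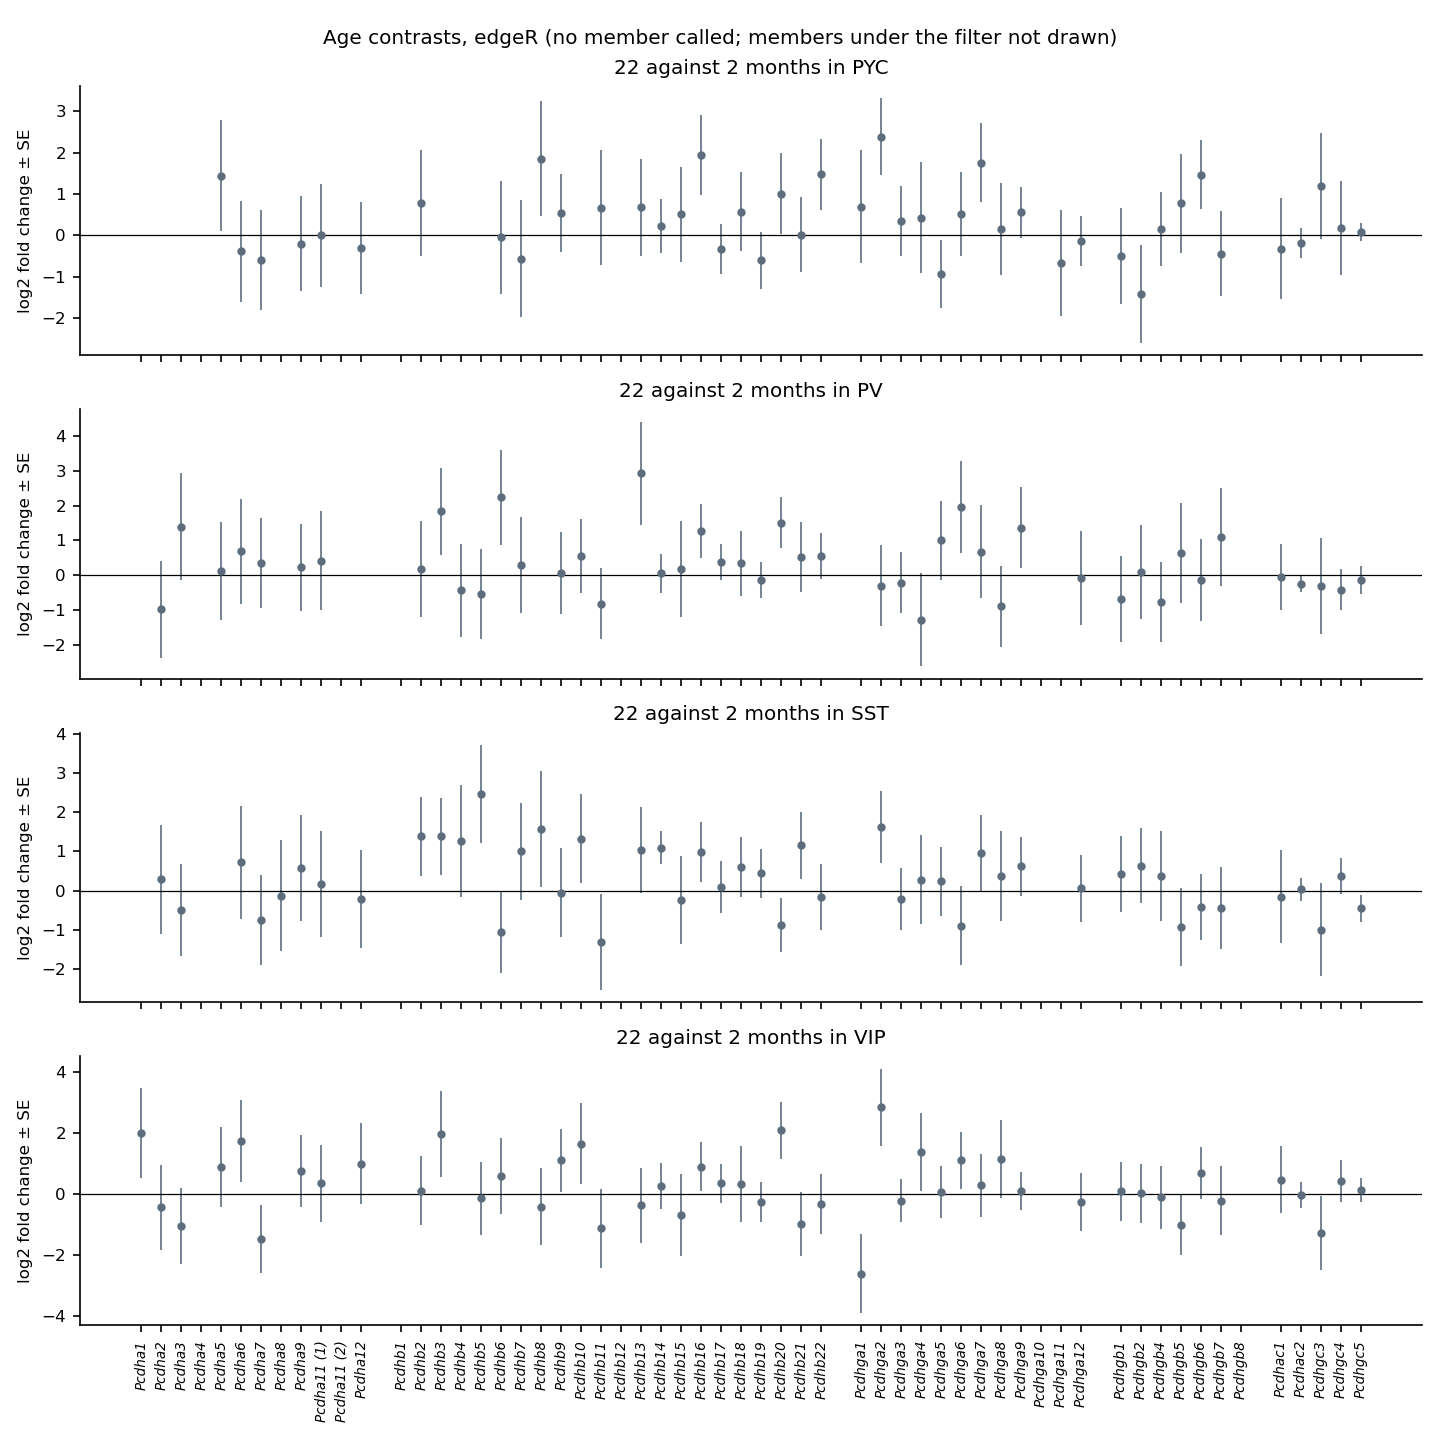
Log2 fold change ± SE of each tested member (vertical axis) between old and young libraries within each neuron type, with members grouped by family along the horizontal axis. No point passed the adjusted threshold, and the errors of numbered members mostly exceed those of Pcdhgc5 and Pcdhac2.

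Genes that act with the clusters were described from lists. Between types, 6.01, 8.61, 2.78 and 4.03% of all genes were called in PYC, PV, SST and VIP. Of 27 genes of promoter choice and chromatin looping, among them CTCF and cohesin subunits, 25 were tested and none reached a 2-fold call in a type. Some passed the adjusted threshold below 2-fold, such as the 5-methylcytosine oxidases Tet2 (-0.67 ± 0.16, edgeR adjusted p = 0.000685) and Tet3 (0.61 ± 0.15, edgeR adjusted p = 0.0016) in PYC and the cohesin subunit Smc3 in VIP (0.77 ± 0.18, edgeR adjusted p = 0.00145).

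Of 30 genes for signalling and processing of the proteins, 29 were tested. In PYC 3 were higher, the focal adhesion kinases Ptk2b (1.51 ± 0.10, edgeR adjusted p = 1.73e-26) and Ptk2 (1.05 ± 0.14) and the WAVE complex subunit Wasf1 (1.12 ± 0.12), and 1 was lower, the receptor kinase Ret (-3.61 ± 0.96), where 2.93% of all genes were called higher and 3.08% lower. In PV 4 were lower, the kinase C substrate Marcks (-2.01 ± 0.28), Ptk2b (-1.41 ± 0.12), Wasf1 (-1.06 ± 0.14) and Ptk2 (-1.01 ± 0.17), where 5.23% of all genes were called lower. None was called in SST or VIP. Clustered protocadherins are known to bind and inhibit both focal adhesion kinases.

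Of 13 protocadherins outside the clusters, 12 were tested, and calls came in every type: 1 lower in PYC, 4 lower in PV, 3 higher in SST and 2 higher in VIP, where 3.08, 5.23, 2.18 and 2.99% of all genes were called in these directions. Pcdh8, which is linked to activity-dependent removal of cadherins, was lower in PYC (-2.25 ± 0.40, edgeR adjusted p = 4.77e-06) and PV (-1.59 ± 0.39) and higher in SST (1.14 ± 0.32) and VIP (2.70 ± 0.31, edgeR adjusted p = 1.21e-11). Pcdh18 was higher in SST (3.25 ± 0.56, edgeR adjusted p = 8.45e-06) and lower in PV (-2.93 ± 0.78), and Pcdh20 was higher in VIP (2.97 ± 0.53, edgeR adjusted p = 1.32e-05) and lower in PV (-2.13 ± 0.69). Pcdh11x was also higher in SST (1.24 ± 0.40) and Pcdh15 also lower in PV (-1.22 ± 0.23). With age no gene of the 3 lists was called, the looping gene with the smallest unadjusted p in SST being Ctcf (1.13 ± 0.41, unadjusted p = 0.00792 by edgeR).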

How the data were processed

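For the 83 libraries, prepared with a strand-preserving kit for very small RNA inputs, the authors deposited raw counts per Ensembl gene. The submitters' processing notes name HISAT2 and GRCm38. The tool that counted reads, its annotation and its strand setting were not given in the sources used here, and how shared exons were treated was read from the values. Gene symbols and coordinates are from GENCODE M21, and 48349 of 48795 genes matched a symbol. No libraries held identical values, and no molecular identifiers are given, so the depth of 1.46 to 27.2 M counts sets a lower limit on the error.

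Groups follow the labels. Members, gene lists and alternatives were chosen with earlier results of these data known. Named members are the 5 C-type members, the 2 highest and the lowest per length of each family, members called, those with the smallest unadjusted age and interaction p-values, and those with the highest variation against trend. Any other gene was named after its values were seen.

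Tests used edgeR 4.0.16 in R 4.3.3 (quasi-likelihood, robust, TMM, two-sided, Benjamini-Hochberg over all genes tested, filterByExpr with a minimum count of 10). Type contrasts and the interaction came from 1 fit of 83 libraries in 8 groups, and age was fitted 1 type at a time. Intervals of a fold (95%) are 1.96 SE on each side of the log2 value. Scripts were tested on simulated data. Alternatives were RLE factors, no filter or another filter, DESeq2 1.42.0, limma-voom (limma 3.58.1), the number after F in the titles as a factor, leaving out the 6 libraries of low mitochondrial share, 1 age only, all groups in 1 fit for age, and each library left out in turn. For the type contrasts and the sums, leaving out each library was chosen after seeing the data, and the type refits kept the dispersions of all 83 libraries. Sums were also taken over TMM library sizes, detection after thinning, and levels over all exonic bases. CPM is a count divided by the library total and multiplied by 1e6. Sums, ratios, shares, levels per length and variation are descriptions with no test.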

Additional observations from a re-analysis of the deposited data

Results flagged for a closer look

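Of 48 sets of values checked by Dixon's ratio, all in the young groups of 8 or 9 libraries, 2 held a library far from the rest. Chance flags about 1 set in 20 where values are normally distributed, and 2 of 48 is no more than that rate. The sets were the C-type members, Pcdhb3, Pcdhga9, the numbered alpha, beta, gamma A and gamma B sums, and the number of members with a count. The old groups of 12 libraries were not checked. Pcdhb3 was at 4.10 CPM in 1 young PYC library (replicate 7) and had no count in the other 8, where any count at all would have been flagged. Pcdhb3 was at 12.8 CPM in 1 young PV library (replicate 2), where the nearest library had 5.17 CPM.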

How the results depend on the processing

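No call changed direction. Pcdhgc5 in PYC and Pcdhac2 in PV passed under all 10 alternatives and in 83 of 83 fits without 1 library, at log2 fold changes of 1.13 to 1.39 (adjusted p up to 0.00497) and 1.01 to 1.22 (up to 0.00125) over the alternatives. Pcdhgc4 in PYC ended only in old or young libraries alone and ran to -2.96 by limma-voom. Pcdhb3 in PYC moved to -4.99 without young PYC replicate 7 and did not pass without young PYC replicate 1, 3, 4, 6 or 8, and Pcdhga9 in PV did not pass without young PV replicate 1, 2, 4, 7 or 8. Leaving out 1 library gave 2 to 3 members called in PYC, 1 to 3 in PV, 0 to 1 in SST, 0 to 1 in VIP and 0 for age in each type. For the type contrasts the share of all genes called was not kept in these fits. Pcdhgc5 in PV passed 2-fold without any 1 of 8 libraries (largest change -1.07), and Pcdhga12 in PV without any 1 of 3 (-1.93 to -1.71). Without young SST replicate 8, Pcdhga11 was called in SST (-3.52) and VIP (2.76), and Pcdhb3 was called in SST without young PYC replicate 7 (2.67) or young PV replicate 2 (2.06).

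With no filter 57 members were tested between types, and 5 were called in PYC, 2 in PV, 4 in SST and 1 in VIP. Genes called there were 3882, 3237, 2752 and 4513 of 40138 in the same order. For age 1 member was called in PV (Pcdhb12, 7.42), 1 in SST (Pcdhb14, 1.08) and 1 over the types (Pcdhb12, 4.61). Over the types 1148 of 40138 genes were called for age with no filter. That setting called 5734 to 7117 genes for age in the 4 types against 0 with the filter, and the cause was not tested. Limma-voom called 5 members in PYC, 5 in PV, 2 in SST and 1 in VIP, where it called 10.1, 14.5, 4.57 and 5.54% of all genes. DESeq2 called 3 members in PV (9.92% of all genes) and 1 for age over the types (Pcdhga2, 1.65; 0.765% of all genes). Old libraries alone gave 1 call in PYC (3.89% of all genes) and 2 in PV (Pcdhgc5 and Pcdhac2, 5.37% of all genes). Young libraries alone gave 1 in PYC (3.42% of all genes) and 1 in PV (5.53% of all genes), with fewer samples in each setting. Without the libraries of low mitochondrial share PYC kept a count of 3 of 53 members, with Pcdhb12 (3.54) in place of Pcdhb3. In that setting 849 of 15479 genes were called in PYC.

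No paired analysis was possible because replicate numbers follow the order of the samples and the labels tie no library to a mouse. Summed levels moved by less than 1 SD between libraries under every alternative run. Leaving out 1 library could not move a mean by that much, so those fits do not test how stable the sums are. Members with few counts limit the depth of what was shown: 6 of 58 could not be tested between types, and 10 to 14 could not be tested for age.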
